A study of Mus musculus with 6 samples.

Results

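The Gimap genes (GTPases of the immunity-associated protein family) form a tandem cluster on mouse chromosome 6. Their 8 mouse members, Gimap1 and Gimap3 to Gimap9, were taken by gene name from the probes of the array other than controls, whatever their values. All 8 were present, with 10 probes, out of 34650 gene names and 55681 probes. The cells were bone marrow cells of strain C57BL/6 sorted as CD48-KSL, which means positive for Sca-1 and c-Kit and negative for CD48 and lineage markers. Haematopoietic stem cells and early progenitors lie within that gate. The first group was labelled Spred1 KO (3 samples), and the other wildtype (WT, 3 samples). The labels give no further allele or treatment and neither the age of the animals nor the deleted part of Spred1. The Spred1 protein holds back signalling from Ras to ERK. Each sample was hybridised to its own 1-colour array. The labels do not say that the samples came from separate animals, so the p-values rest on a spread that may be partly technical. In such bulk samples, fewer cells of a type and less RNA per cell cannot be told apart.

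Gimap proteins carry a GTP-binding AIG1 domain and sit mostly on membranes inside lymphocytes, where they act in the survival of T and B cells. Gimap5 is the best known member: rats and mice without it lose T cells, and mice without it also have defective haematopoietic stem cells. Gimap1 is needed for mature B and T cells, Gimap4 acts in the death of T cells, Gimap6 takes part in autophagy, and Gimap3 is the closest relative of Gimap5 in mice.

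In probe positions on build mm9 the cluster spans 104 kb (103.748 kb), from 48610775 to 48714522 on chromosome 6, in the order Gimap8, Gimap9, Gimap4, Gimap6, Gimap7, Gimap1, Gimap5 and Gimap3. The probes of Gimap6 and Gimap3 lie on the minus strand and the others on the plus strand. Each probe is 60 bases long, and the accessions of all 10 carry the same symbol in the RefSeq table. No run longer than 9 bases is shared by any pair of these probes. Hybridisation to other transcripts was not tested. Those that start nearest the 5′ end of their transcripts, at bases 518, 500 and 904, are printed to show what the arrays measured, 5′ to 3′ and on mm9. Each holds at least 1 open forward frame.
Gimap9 probe at chr6:48627839-48627898: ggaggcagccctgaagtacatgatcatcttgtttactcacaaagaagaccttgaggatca
Gimap4 probe at chr6:48640752-48640811: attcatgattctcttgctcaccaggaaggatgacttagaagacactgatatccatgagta
Gimap7 probe at chr6:48674271-48674330: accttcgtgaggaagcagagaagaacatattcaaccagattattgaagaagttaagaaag

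Promoters are shown for Gimap3, Gimap4 and Gimap6. The signals of Gimap3 and Gimap4, on the probe used for each gene, went up and down together over the arrays. Gimap6 was the 1 member whose genotypes did not overlap. The promoters run from 250 bases before to 50 bases after the gene's start, from RefSeq on build GRCm38.p6. Those of Gimap6 and Gimap3 read along the minus strand. Capitals mark AGGAAG, a form of the Ets motif, and TGTGGT, the core of the Runx motif, each searched on both strands, with no overlap between them.
Gimap3 promoter at chr6:48770802-48771101: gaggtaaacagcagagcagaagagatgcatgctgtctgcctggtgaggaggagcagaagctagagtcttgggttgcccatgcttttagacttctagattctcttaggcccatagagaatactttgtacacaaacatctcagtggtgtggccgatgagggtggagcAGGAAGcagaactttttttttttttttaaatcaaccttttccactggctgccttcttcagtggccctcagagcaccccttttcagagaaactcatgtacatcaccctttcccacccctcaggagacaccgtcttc
Gimap4 promoter at chr6:48684328-48684627: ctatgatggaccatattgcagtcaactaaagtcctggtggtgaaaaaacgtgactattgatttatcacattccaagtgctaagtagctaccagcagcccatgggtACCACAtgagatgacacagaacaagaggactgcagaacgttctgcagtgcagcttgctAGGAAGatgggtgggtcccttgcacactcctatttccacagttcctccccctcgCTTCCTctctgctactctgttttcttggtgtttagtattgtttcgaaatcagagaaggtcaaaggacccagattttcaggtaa
Gimap6 promoter at chr6:48708195-48708494: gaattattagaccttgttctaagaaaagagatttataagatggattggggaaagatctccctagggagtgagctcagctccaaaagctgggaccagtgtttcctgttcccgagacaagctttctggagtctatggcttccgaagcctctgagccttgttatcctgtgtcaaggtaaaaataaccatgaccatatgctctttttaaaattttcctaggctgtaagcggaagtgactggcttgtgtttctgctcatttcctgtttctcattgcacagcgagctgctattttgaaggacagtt
The table holds 9 such windows for the 8 genes, since Gimap8 has 2 that overlap each other. AGGAAG occurred in 7 of the 9 windows, against 35.4% of 32851 mouse promoters of the same length, and TGTGGT in 3 of the 9, against 16.8%. The 3 with TGTGGT belong to Gimap4, Gimap7 and Gimap1. The Gata motif AGATAA, on both strands, and the TATA box TATAAA, on the strand of the gene, occurred in none of the 9, against 11.2% and 8.32% of all promoters. The windows held 2 to 8 CpG dinucleotides with a median of 4, against a median of 7 over all promoters. A match is a description of the letters in these windows. Other forms of these motifs were not searched, so a window without capitals may still hold one.

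Signals are log2 values of the processed intensity from which the array's own 75th percentile (also log2) was subtracted. A value of 0 thus equals that percentile. All 10 Gimap probes were well above background on all 6 arrays. Levels of different probes are not set against each other, since probes differ in how well they bind. Genotypes were compared by limma over 19610 genes, with 1 probe per gene, and p-values were adjusted over all of them by the Benjamini-Hochberg method (threshold 0.05). None of the 8 Gimap genes passed, with limma adjusted p between 0.476 and 0.853, and 0 of the 8 had an unadjusted p under 0.05. Over all genes 0.0204% passed the adjusted threshold, 4 in number, and 12.2% had an unadjusted p under 0.05. A count of 0 among 8 is thus near the background. All 8 differences were smaller than 1.5-fold, as were 96.6% of all differences. By sign, 5 members measured higher in KO and 3 lower (48.8% of all genes measured higher), and the median difference was 0.15 on the log2 scale, against -0.0063 over all genes. It was -0.10 within slide 1 (2 arrays per genotype) and 0.35 within slide 2 (1 per genotype). Without WT replicate 3 it was 0.0040.

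**Figure D1:**
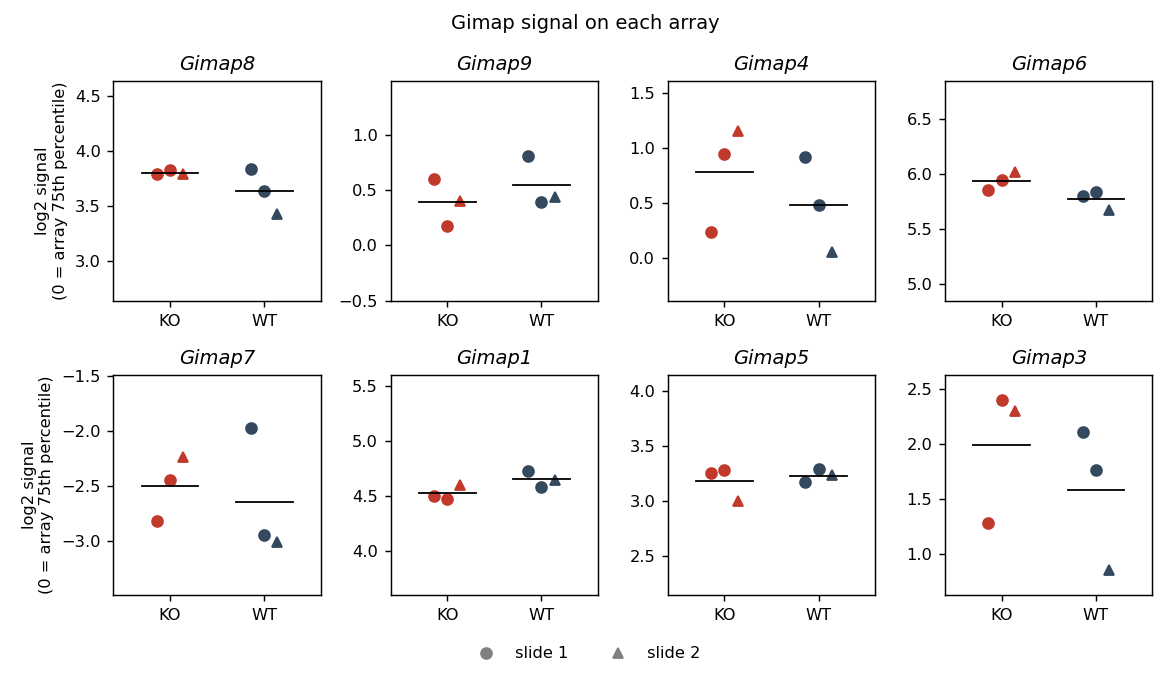
Signal of each Gimap gene on each array, as log2 of the processed intensity relative to the 75th percentile of the array (0), with KO left of WT. Circles are arrays of slide 1, triangles those of slide 2, bars are means of 3 arrays, and every panel spans 2 log2 units. KO and WT arrays overlap in each panel but that of Gimap6.

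Gimap5 and Gimap3 lie side by side at the end of the cluster. Gimap5 measured 3.25, 3.29 and 3.01 on the KO arrays, against 3.17, 3.29 and 3.23 on the WT arrays. The genotypes overlapped, and the lowest value was that of KO replicate 3. The difference was -0.05 ± 0.10 SE (limma adjusted p = 0.849), and its 95% interval ran from 0.815-fold to 1.15-fold. Within slide 1 it was 0.04 and within slide 2 it was -0.23. Gimap3, which acts with Gimap5 in T cells, measured 1.28, 2.39 and 2.30 on the KO arrays, against 2.11, 1.76 and 0.86 on the WT arrays. It was lowest on WT replicate 3 and KO replicate 1, and the genotypes overlapped. The difference was 0.41 ± 0.40 SE (limma adjusted p = 0.673), and its 95% interval, from 0.682-fold to 2.60-fold, includes changes of either direction. It was -0.10 within slide 1 and 1.44 within slide 2, the slide with 1 array per genotype. Gimap3 thus had the widest interval of the 8 members and Gimap1 the narrowest.

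Gimap1 measured 4.50, 4.48 and 4.60 on the KO arrays, against 4.73, 4.59 and 4.65 on the WT arrays. All KO arrays lay below the WT mean, but KO replicate 3 lay above WT replicate 2. The difference was -0.13 ± 0.08 SE (limma adjusted p = 0.534), with a 95% interval from 0.796-fold to 1.05-fold. The array also holds Gimap1os, a transcript predicted from the opposite strand beside Gimap1 and no member by its name. Its probe, at 48688472 to 48688531 on the minus strand, measured 2.84, 2.80 and 2.75 on the KO arrays, against 2.96, 2.68 and 2.36 on the WT arrays. The KO arrays fell within the span of the WT arrays, and the difference was 0.13 ± 0.15 SE (limma adjusted p = 0.727). Gimap1 and Gimap1os thus differed in sign, neither past the threshold.

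Gimap6, the member linked to autophagy, measured 5.86, 5.95 and 6.02 on the KO arrays, against 5.80, 5.84 and 5.68 on the WT arrays. Every KO array lay above every WT array, narrowly for KO replicate 1 and WT replicate 2. The difference was 0.17 ± 0.09 SE (limma adjusted p = 0.476, 95% interval from 0.968-fold to 1.30-fold). The exact two-sided permutation p was 0.1, the smallest that 3 against 3 arrays allow. It was the 1 member of 8 without overlap, and over all genes 19.6% had none, 9.52% with KO above WT. Within slide 1 the difference was 0.079 and within slide 2 it was 0.34.

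Gimap8, which carries several GTPase domains, measured 3.79, 3.83 and 3.79 on the KO arrays, against 3.84, 3.63 and 3.43 on the WT arrays. The KO arrays lay within a narrow band (SD 0.021, n = 3) and the WT arrays were spread around it (SD 0.21, n = 3). The difference was 0.17 ± 0.12 SE (limma adjusted p = 0.558), 0.070 within slide 1 and 0.36 within slide 2. Gimap9 measured 0.60, 0.17 and 0.41 on the KO arrays, against 0.81, 0.39 and 0.44 on the WT arrays. The highest array was a WT one, replicate 1, and the lowest a KO one, replicate 2. The difference was -0.16 ± 0.16 SE (limma adjusted p = 0.683).

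Gimap7, whose human protein speeds up the GTP hydrolysis of another family member, had processed intensities from 45.9 to 106.5. It measured -2.82, -2.45 and -2.23 on the KO arrays, against -1.97, -2.94 and -3.01 on the WT arrays. WT replicate 1 was the highest array and the other WT arrays were the lowest. The difference was 0.14 ± 0.30 SE (limma adjusted p = 0.853), -0.18 within slide 1 and 0.78 within slide 2. Leaving out WT replicate 2 gave -0.010, and leaving out WT replicate 3 gave -0.045.

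**Figure D2:**
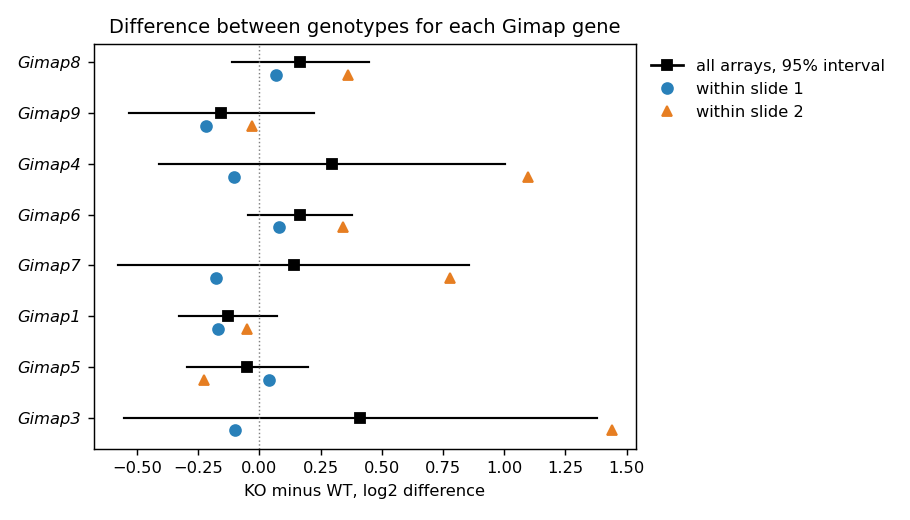
KO minus WT for each Gimap gene, as a log2 difference on the x axis. Squares are the differences over all arrays with limma's 95% interval, circles the differences within slide 1 and triangles those within slide 2. Every interval includes 0, and the slides lie on opposite sides of 0 for Gimap3, Gimap4 and Gimap7 (-0.10, -0.10 and -0.18 within slide 1) and for Gimap5 (0.04 within slide 1 and -0.23 within slide 2).

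Gimap4 has 3 probes, and they differ in spread. The probe at 48641817 to 48641876, the one with the highest mean and so used for the gene, measured 0.24, 0.95 and 1.15 on the KO arrays, against 0.91, 0.48 and 0.06 on the WT arrays. It was low on KO replicate 1 and WT replicate 3, as Gimap3 was. The difference was 0.30 ± 0.30 SE (limma adjusted p = 0.679 over all genes), -0.10 within slide 1 and 1.10 within slide 2. The probe at 48640752 to 48640811, annotated to transcript variant 3 and printed above, measured -2.27, -1.98 and -1.62 on the KO arrays. On the WT arrays it measured -1.85, -2.99 and -2.94, so that WT replicate 1 lay among the KO arrays and the other WT arrays below them. Its difference was the largest of the 10 probes, 0.63 ± 0.33 SE (limma adjusted p = 0.490 over 27808 probes, of which 0.0324% passed). Its processed intensities were low, from 48.2 to 115.9, much as those of the Gimap7 probe. The probe at 48641312 to 48641371, annotated to variant 1 like the tested one, measured -1.40, -1.13 and -1.07 on the KO arrays, against -1.34, -1.49 and -1.37 on the WT arrays. Its range over the 6 arrays was 1.33-fold, against 2.14-fold for the tested probe and 2.57-fold for the variant 3 probe. The difference was 0.20 ± 0.11 SE (limma adjusted p = 0.518 over all probes). All 3 probes thus measured higher in KO by sign, none past the threshold.

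The members fell into different patterns over the arrays. The spread within genotypes was 0.63 for Gimap3 (pooled SD, log2 scale), 0.46 for Gimap7 and 0.45 for Gimap4, and 1.81%, 4.50% and 4.77% of all genes had a larger one. For Gimap1, at 0.068, 89.8% of all genes had a larger spread, and for Gimap6, at 0.083, 81.9%. The median spread over all genes was 0.14. Relative to its own mean, Gimap3 stood at -0.50, 0.61 and 0.51 on the KO arrays, against 0.33, -0.02 and -0.93 on the WT arrays. For Gimap4 the values were -0.39, 0.31 and 0.52 on the KO arrays, against 0.28, -0.15 and -0.58 on the WT arrays. Both were high on KO replicates 2 and 3 and on WT replicate 1, and lowest on WT replicate 3. For Gimap4 this describes the tested probe. The Gimap4 probes at 48640752 and 48641312 were lowest on WT replicate 2 instead, at -2.99 and -1.49 (log2 signal). The root mean square distance between Gimap3 and the tested Gimap4 probe over the 6 arrays was 0.20. The root mean square about their own means was 0.56 for Gimap3 and 0.40 for Gimap4. From Gimap3 to the other members it ran from 0.36, for Gimap7, to 0.63, for Gimap9. Gimap4 and Gimap7 were 0.21 apart. Gimap6 and Gimap8, which varied less, were 0.10 apart. The arrays on which Gimap3 and Gimap4 were low lay on different slides and in different genotypes. Gimap3 and Gimap4 are not adjacent: Gimap6, Gimap7, Gimap1 and Gimap5 lie between them.

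**Figure D3:**
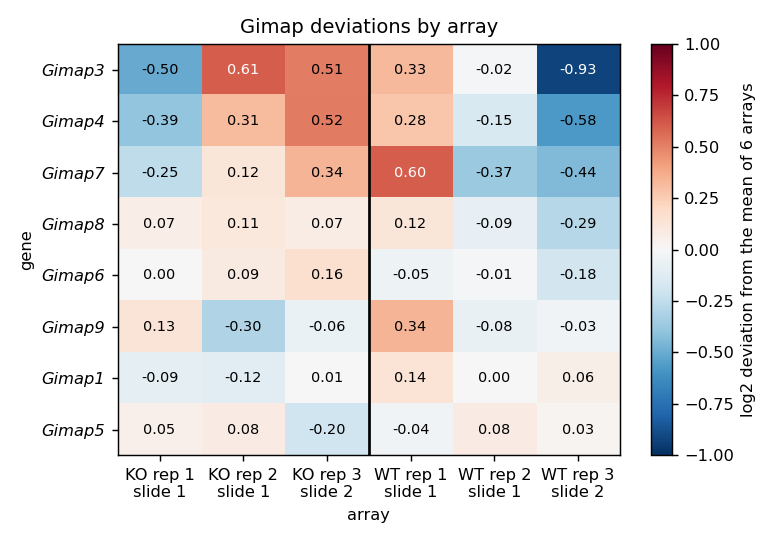
Log2 deviation of each Gimap gene (rows) from its own mean over the 6 arrays, with the KO arrays left of the WT arrays (columns) and the slide under each. Each row is the probe used for the gene. Gimap3, Gimap4 and Gimap7 vary most, and each is low on KO replicate 1 and on WT replicate 3, while Gimap1 and Gimap5 stay between -0.20 and 0.14.

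Among 18746 other genes well above background on all 6 arrays, those nearest to the mean Gimap profile were Serpinb6c, a serpin gene (root mean square distance 0.034), Ptprc, which encodes the leukocyte antigen CD45 (0.056), and Ugt1a10, a glucuronosyltransferase gene (0.061). Probes that the array names by position alone took the other 2 of the first 5 places. Relative to its own mean, Ptprc stood at -0.091, 0.085 and 0.101 on the KO arrays, against 0.184, -0.088 and -0.19 on the WT arrays. For the mean of the Gimap genes the values were -0.12, 0.11 and 0.17 on the KO arrays, against 0.216, -0.08 and -0.295 on the WT arrays. The gene nearest to Gimap3 was Mc3r, a melanocortin receptor gene (0.16), and for Gimap4 the first named one was Dhrs11, a short-chain dehydrogenase gene (0.13). Among the first 5 for Gimap8 were Cd300a (0.041), Th (0.042) and then Iqgap2, a scaffold protein gene (0.048). Among those for Gimap1 were Asf1a and Ak3 (0.018 each) and then Guk1, which encodes guanylate kinase (0.023). These distances are a description over 6 arrays, which the profiles share.

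Within the cluster or 500 kb of it, 16 other genes were kept, Gimap1os among them, and none passed (smallest limma adjusted p = 0.363). Of these, 12 measured higher and 4 lower in KO, 2 had an unadjusted p under 0.05, and their median difference was 0.091. Over all genes 48.8% measured higher, 12.2% had such a p and the median was -0.0063, so that 2 of 16 is near the background. On the side of Gimap3 the nearest named genes were Tmem176b (-0.10 ± 0.07 SE) and Tmem176a (-0.32 ± 0.10 SE, limma adjusted p = 0.376), a pair of related membrane protein genes. Next came Doxl2, as the array names it (0.38 ± 0.11 SE, limma adjusted p = 0.363), and Malsu1, a gene of mitochondrial ribosome assembly (0.08 ± 0.08 SE). On the side of Gimap8 the nearest named ones were the transcript AI854703 (0.03 ± 0.11 SE), the zinc finger gene Repin1 (-0.11 ± 0.08 SE), Lrrc61 (0.11 ± 0.11 SE) and the transcript AI853106 (0.29 ± 0.14 SE). Values of the Gimap genes, from -0.16 to 0.41, thus spanned a range much like that of their neighbours, from -0.32 to 0.38.

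**Figure D4:**
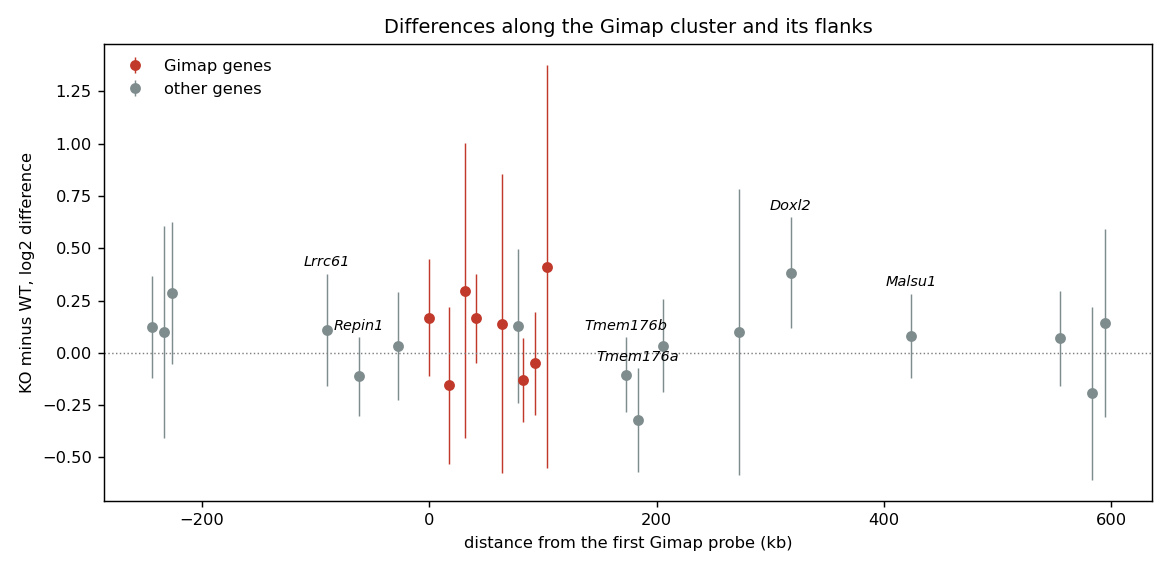
KO minus WT, as a log2 difference with limma's 95% interval, by distance in kb from the first Gimap probe, for the 8 Gimap genes (red) and the 16 other kept genes within 500 kb (grey). Intervals of all Gimap genes include 0, and of the neighbours those of Tmem176a and Doxl2 do not, although neither passed after adjustment.

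Genes tied to Gimap proteins, and a further family of GTPases, were described as lists. Of 17 genes of the Bcl2 family, which decides between survival and death and to which Gimap proteins have been tied in T cells, 13 were kept. None passed, 2 were higher and 0 lower at an unadjusted p under 0.05 (7.06% of all genes were higher at that level), and the median difference was -0.077. The 2 were Bcl2l11, which encodes the death-promoting protein Bim (0.76 ± 0.13 SE, limma adjusted p = 0.277), and Bcl2a1d (0.74 ± 0.14 SE, limma adjusted p = 0.359). Of 13 genes of the Atg8 family and its conjugation, the autophagy machinery to which Gimap6 binds, 12 were kept. None of them passed, 0 had an unadjusted p under 0.05, and the median was -0.043. Gabarapl2, the Atg8 protein that Gimap6 binds, measured -0.15 ± 0.09 SE (limma adjusted p = 0.501) and Atg3 -0.29 ± 0.16 SE (limma adjusted p = 0.476). All 15 genes of the interferon-inducible GTPases, another immune GTPase family, were kept. None passed, 1 was higher at an unadjusted p under 0.05, Gbp6 (0.62 ± 0.21 SE, limma adjusted p = 0.378), and the median was 0.012.

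Of 14 lymphoid transcription factor genes, 12 were kept and none passed. By sign 10 measured higher and 2 lower, Gata3 (-0.19) and Foxo1 (-0.05), with a median of 0.12. At an unadjusted p under 0.05, 3 were higher and 0 lower, and 7.06% of all genes were higher at that level. The 3 were Satb1 (0.46 ± 0.12 SE), Notch1 (0.66 ± 0.19 SE) and Ikzf1, which encodes Ikaros (0.23 ± 0.08 SE), with limma adjusted p of 0.363, 0.363 and 0.378. Of 11 lymphoid priming genes 8 were kept, while Rag1, Rag2 and Il7r were above background on no array. None passed. With an unadjusted p under 0.05, 3 measured higher: Flt3 (0.42 ± 0.13 SE, limma adjusted p = 0.370) and, on both lists, Satb1 and Notch1. Over all genes 48.8% measured higher by sign, and the median was -0.0063. Of the 8, 7 measured higher and 1 lower, Ccr9 (-0.40), with a median of 0.42. Ccr9 was well above background on 1 KO and 3 WT arrays, and Ly6d (1.04) on 3 KO and 2 WT arrays. Each was thus kept only through the genotype where it measured higher, so its sign is tied to the filter. The other 6 were well above background on all 6 arrays. The summed signal of the 8, with the 75th percentile of the array as 1, was 38.2 to 46.8 on the KO arrays, against 30.9 to 31.8 on the WT arrays. A sum weighs bright probes most, and Flt3 measured 4.65 to 4.97 on the KO arrays, against 4.21 to 4.52 on the WT arrays (log2 signal). The median log2 deviation of the 8 genes from their WT means overlapped, at 0.34 to 0.59 on the KO arrays, against -0.25 to 0.37 on the WT arrays. The summed signal of the 8 Gimap genes was 109 to 120 on the KO arrays, against 101 to 114 on the WT arrays, so that the genotypes overlapped.

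Gimap genes are known for high levels in T cells, so markers of mature cells were read beside them. Of 18 T cell genes, 10 were kept, and 5 were not well above background on any array: Cd3g, Cd8a, Cd8b1, Tcf7 and Bcl11b. All 10 measured higher in KO by sign, 0 at an unadjusted p under 0.05, with a median of 0.20 and none past the limma threshold. The largest difference was that of Cd2 (0.76), well above background on 3 KO and 2 WT arrays. Cd2 was thus kept only through KO, so its sign is tied to the filter, while the other 9 were well above background on all 6 arrays. Over all genes 48.8% measured higher, and the median was -0.0063. The 10 genes were read on the same 6 arrays, so their signs are not independent. The summed signal of the 10 was 17.0 to 18.2 on the KO arrays, against 15.0 to 17.5 on the WT arrays. Of 10 NK cell genes 5 were above background on no array (Ncr1, Klrd1, Klrk1, Eomes and Tbx21), and the summed signal of the 3 kept was 8.10 to 9.98 on the KO arrays, against 8.47 to 9.58 on the WT arrays. For B cell genes, with Pax5, Ebf1 and Igll1 of 10 above background on no array, the 5 kept summed to 12.0 to 14.4 on the KO arrays, against 11.5 to 13.5 on the WT arrays. Among them Cd22 differed by 0.44 ± 0.12 SE without overlap (limma adjusted p = 0.363), and over all genes 19.6% had no overlap. The others ran from -0.098, for Vpreb1, to 0.46, for Cd79a, and 2 of the 5 measured lower in KO. Endothelial cells express Gimap genes as well. Of 7 endothelial genes, Cdh5 and Flt4 were above background on no array, and the 5 kept summed to 13.3 to 14.9 on the KO arrays, against 12.0 to 14.0 on the WT arrays. Kdr differed by 0.29 ± 0.12 SE and Tie1 by -0.25 ± 0.10 SE, the second without overlap (limma adjusted p = 0.408 and 0.403). Stab2 differed most, by 1.075 ± 0.54 SE (limma adjusted p = 0.456). It was well above background on 3 KO and 2 WT arrays and so was kept only through KO, which ties its sign to the filter. Of the 5, 3 measured higher and 2 lower in KO, with a median of 0.29. The part of these cell types in the Gimap values was not tested.

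The arrays as a whole were alike, with Pearson correlations of 0.988 to 0.995 over all genes between pairs of arrays, which are across genes and not independent replicates. The gate genes Kit and Ly6a, which encodes Sca-1, were well above background on all arrays and did not pass, and neither did Cd48, whose transcript was also above background on all arrays. All 10 stem cell genes of the marker list were above background on every array. Of these, 8 measured lower in KO by sign, with a median of -0.16, and none passed. The other 2, Mecom (0.25 ± 0.15 SE) and Hlf (0.21 ± 0.12 SE), measured higher. Over all genes 48.8% measured higher, and the median was -0.0063. Esam (-0.43 ± 0.12 SE, limma adjusted p = 0.363) and Slamf1 (-0.56 ± 0.22 SE, limma adjusted p = 0.400) had an unadjusted p under 0.05, as did 12.2% of all genes. The summed signal of the 10 overlapped, at 128 to 140 on the KO arrays, against 131 to 144 on the WT arrays. For the targeted gene, the Spred1 probe annotated to transcript variant 2 measured -0.15 to 0.23 on the KO arrays, against -2.67 to -2.20 on the WT arrays, and a variant 1 probe 0.05 to 0.27 on the KO arrays, against 1.12 to 1.21 on the WT arrays. In the fit over all probes the variant 2 probe passed, higher in KO (2.44 ± 0.16 SE, limma adjusted p = 0.013). That variant 1 probe, lower in KO, did not (-0.98 ± 0.09 SE, limma adjusted p = 0.054). The third Spred1 probe overlapped between genotypes, and it had the highest mean and so stood for the gene. Without the deleted part known none of these probes checks the labels. WT replicate 1 stood apart in markers of neutrophils, whose summed signal was 324 to 423 on the KO arrays, against 93.2, 499 and 466 on WT replicates 1, 2 and 3. Erythroid genes summed to 23.6 to 26.9 on the KO arrays, against 11.9 on WT replicate 1 and 42.4 to 48.2 on the other WT arrays. Without WT replicate 1 the differences were 0.68 for Gimap3, 0.51 for Gimap4, 0.48 for Gimap7 and 0.27 for Gimap8, each larger than with it, and none passed (smallest limma adjusted p = 0.620). Unadjusted limma p was then 0.043 for Gimap7 and 0.040 for Gimap8, in a fit where 7.83% of all genes had one under 0.05. Those of the other members were then -0.09 for Gimap1, -0.08 for Gimap5, 0.18 for Gimap6 and -0.023 for Gimap9. Without WT replicate 3, by contrast, the differences were 0.053 for Gimap3, 0.083 for Gimap4, 0.065 for Gimap8 and 0.12 for Gimap6, each smaller than with it. The remaining members then stood at -0.13 for Gimap1, -0.048 for Gimap5, -0.045 for Gimap7 and -0.21 for Gimap9. For Gimap9 this was larger in size than with that array (-0.16).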

How the data were processed

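Transcripts were measured in 3 KO and 3 WT samples, each on 1 Agilent array labelled with Cy3. Intensity values had been read with Agilent Feature Extraction 10.7.3.1 and corrected within the array for background and trends, per the file headers, with no step between arrays named. The authors' deposited value table holds the same signal divided by 1 constant per array (304 to 368), on a linear scale and not centred, when set against the scanner output. Its column medians were 0.0638 to 0.075.

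Control spots and 92 to 155 outlier spots per array were left out, no spot was saturated, and spots of a probe were averaged. Each gene was represented by its probe of highest mean. Genes well above background on all 3 arrays of a genotype were kept. KO minus WT was fitted with limma 3.58.1 in R 4.3.3 and the script was tested on simulated data. Slide 1 held replicates 1 and 2 of both genotypes, and slide 2 replicate 3.

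Named are the members, the nearest neighbours, the listed genes of smallest p and the genes of most similar profile, of which the text prints some. Members and lists were chosen with earlier results of these data known. The number of arrays limits the precision.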

Additional observations from a re-analysis of the deposited data

How the results depend on the processing

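No Gimap gene passed the adjusted threshold of limma under any alternative: another normalization or background correction, the authors' deposited value table, other filters, the mean over probes, the slide or the replicate number as a block, slide 1 alone, or each array left out (smallest adjusted p = 0.418). Without WT replicate 1, Gimap7 (0.48) and Gimap8 (0.27) had an unadjusted p under 0.05, as did 7.83% of the 19768 genes in that fit. Of 136 values over 17 alternatives, slide 2 alone included, which gives no test, 8 changed sign. Within slide 1 the differences were -0.10 for Gimap3, -0.10 for Gimap4, 0.040 for Gimap5 and -0.18 for Gimap7. Gimap5 was 0.020 under normexp with quantile normalization and, with each array left out, ran from -0.10 to 0.039, the highest without KO replicate 3. Gimap7 was -0.010 without WT replicate 2 and ran from -0.045, without WT replicate 3, to 0.48. The cause of these changes was not tested. The median Gimap difference was -0.10 within slide 1 and 0.35 within slide 2. With each array left out in turn it ran from 0.0040, without WT replicate 3, to 0.23, without WT replicate 1.

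Over all genes, 2 passed as higher and 2 as lower in KO. Quantile normalization gave 1 higher and 0 lower, normexp with either scaling 5 and 4, and no filter 0 and 0, with 59.8% of genes then higher by sign, against 48.8%. Keeping genes above background on every array gave 1 and 0, a slide block 2 and 1, and slide 1 alone 0 and 1. The replicate block gave 0 and 0, with 2138 genes at an unadjusted p under 0.05, against 2389. Same-numbered KO and WT samples deviated from their genotype means with correlations over genes of -0.025, 0.15 and 0.071, and KO replicate 1 correlated best with WT replicate 3, so the numbers were not taken as pairs. Leaving out 1 array gave 0 to 5 higher and 0 to 2 lower genes; without WT replicate 1 none passed, and 1548 had an unadjusted p under 0.05. For Gimap7, at intensities from 45.9, the difference was 0.14, against 0.057 under quantile normalization, 0.087 under normexp with the 75th percentile and 0.0075 under normexp with quantile normalization.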
